A study of Mus musculus with 12 samples.

Results

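Collagen genes were described in non-endothelial stromal cells (SCs) of mouse lymph nodes, as every gene of the deposited expression table whose symbol is Col, a number, a and a number. This rule found 27 genes among the 10253 of the table. They comprise 7 fibrillar collagens, 6 collagens of basement membranes, 3 fibril-associated collagens with interrupted triple helices (FACIT) and 11 others. Genes with at least 1 RPKM in at least 3 libraries were tested, which kept 9764 genes and 26 of the 27 collagens. Col13a1, a transmembrane collagen, fell below this filter, with 0 to 0.201 RPKM.

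The cells were released by collagenase and dispase and sorted without culture as CD45-CD24-CD31- and podoplanin+ (Pdpn+, gp38+) from mesenteric lymph nodes (mLN), which drain the gut, or from skin-draining peripheral lymph nodes (pLN). The 4 groups of 3 libraries each were mLN GF, mLN SPF, pLN GF and pLN SPF, where GF stands for germ-free and SPF for specific pathogen-free housing. All mice were BALB/c. By the study's methods the GF mice were 6 to 10 weeks old and came from a colony founded by caesarean section. They were kept either at the institute of that colony or where the SPF mice were bred. The SPF mice were 7 to 12 weeks old. The only BALB/c line listed under SPF housing carried the CD90.1 allele, and the methods do not name the line used here. Housing can therefore not be told apart from colony, age range, any difference in site and this allele where it was carried. For the pLN libraries the labels call the node both skin-draining and mesenteric in 1 field, and the titles were followed. Nothing in the labels says whether the 3 libraries of a group came from separate mice or from pools, so the p-values measure the spread between these libraries.

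Collagens are secreted proteins in which 3 chains wind into a triple helix. Fibrillar collagens assemble into the cable-like fibres of connective tissue, type IV collagens form the sheet of basement membranes, FACIT collagens sit on the surface of fibrils, and type VI forms beaded filaments around cells. In lymph nodes, reticular SCs enwrap a mesh of collagen fibres, the conduits, whose core is fibrillar and whose sheath resembles a basement membrane. The data are levels of RNA, and protein was not measured.

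The promoters of 2 sets of neighbouring collagen genes are shown because the results below set these neighbours side by side. RefSeq windows from 250 bases before to 50 after the start (GRCm38.p6) were matched for 22 of the 27 collagens by symbol. Col4a1 and Col4a2, which encode the chains of the common type IV network, lie head to head on chromosome 8, and their windows at chr8:11312777-11313076 (minus strand) and chr8:11312555-11312854 (plus strand) share 78 bases. Col6a6, Col6a5 and Col6a4, which encode further chains of type VI collagen, follow each other on the minus strand of chromosome 9, with windows at chr9:105828036-105828335, chr9:105960594-105960893 and chr9:106096642-106096941. Each is given 5′ to 3′ on its own strand, and capitals mark the letters TATAAA (the TATA box), CCAAT (bound by nuclear factor Y) and GGGCGG (a GC box), read on both strands. CCAAT read on the other strand can overlap GGGCGG.
Col4a1: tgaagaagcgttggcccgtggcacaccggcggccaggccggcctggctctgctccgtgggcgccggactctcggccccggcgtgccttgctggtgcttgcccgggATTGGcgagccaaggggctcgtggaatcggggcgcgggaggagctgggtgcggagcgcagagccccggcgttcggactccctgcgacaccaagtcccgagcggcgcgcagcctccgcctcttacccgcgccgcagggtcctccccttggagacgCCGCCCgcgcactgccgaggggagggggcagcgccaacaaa
Col4a2: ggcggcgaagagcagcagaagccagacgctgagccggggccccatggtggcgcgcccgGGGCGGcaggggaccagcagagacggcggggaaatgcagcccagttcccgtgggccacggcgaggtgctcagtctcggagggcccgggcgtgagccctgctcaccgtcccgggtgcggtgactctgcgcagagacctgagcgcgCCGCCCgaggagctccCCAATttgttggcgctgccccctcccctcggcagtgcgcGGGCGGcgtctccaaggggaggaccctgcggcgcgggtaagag
Col6a6: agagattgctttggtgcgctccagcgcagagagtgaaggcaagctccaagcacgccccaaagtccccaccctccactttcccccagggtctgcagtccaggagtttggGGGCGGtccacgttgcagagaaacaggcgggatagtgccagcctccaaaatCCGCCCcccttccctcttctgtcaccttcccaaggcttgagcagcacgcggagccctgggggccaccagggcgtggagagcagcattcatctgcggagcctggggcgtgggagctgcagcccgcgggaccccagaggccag
Col6a5: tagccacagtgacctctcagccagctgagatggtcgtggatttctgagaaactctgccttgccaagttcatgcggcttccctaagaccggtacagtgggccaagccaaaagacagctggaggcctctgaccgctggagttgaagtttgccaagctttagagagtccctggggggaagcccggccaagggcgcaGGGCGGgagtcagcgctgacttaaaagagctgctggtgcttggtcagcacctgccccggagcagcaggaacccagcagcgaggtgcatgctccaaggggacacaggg
Col6a4: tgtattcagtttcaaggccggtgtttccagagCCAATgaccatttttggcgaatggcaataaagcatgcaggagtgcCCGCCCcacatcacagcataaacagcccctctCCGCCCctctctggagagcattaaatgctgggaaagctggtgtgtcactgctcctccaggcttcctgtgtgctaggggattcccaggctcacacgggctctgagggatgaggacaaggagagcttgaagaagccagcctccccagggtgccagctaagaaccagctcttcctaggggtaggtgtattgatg

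GGGCGG was found in each of these 5 windows, and in 17 of the 24 collagen windows against 35.7% of all 32851 windows of this length. The only match of Col4a1 lies in the 78 shared bases and is also a match of Col4a2. The 24 windows belong to 22 collagens, because Col6a2 and Col18a1 have another start, so they are not independent. CCAAT was found in the windows of Col4a1, Col4a2 and Col6a4 but not in those of Col6a5 and Col6a6. It occurred in 8 of the 24 collagen windows and in 37.4% of all windows. TATAAA was in none of the 5, in 2 of the 24 collagen windows (Col3a1 and Col13a1) and in 13.6% of all windows. The type IV pair was rich in CpG, with 37 in the Col4a1 window and 33 in the Col4a2 window, against 14 for Col6a6, 10 for Col6a5 and 5 for Col6a4 and a median of 7 over all windows. These matches describe the letters only.

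Expression is given in RPKM, reads scaled to exon length and library size, so that levels can be set side by side between genes. The libraries held 4623295 to 14090731 reads in genes of the table. Replicates correlated at 0.973 or above (Pearson, log2 scale, across genes, which are not independent). Pdpn, which encodes the podoplanin used in the sort, averaged 58.8 ± 4.30 RPKM in mLN GF, 62.1 ± 4.10 in mLN SPF, 74.9 ± 5.21 in pLN GF and 70.1 ± 5.28 in pLN SPF (SD, n = 3 each). With the fibroblast genes Pdgfra, Pdgfrb and Thy1, which were not part of the gate, it summed to 264 to 292 RPKM in mLN GF, 316 to 357 in mLN SPF, 304 to 346 in pLN GF and 332 to 385 in pLN SPF. Pecam1, which encodes the excluded CD31, averaged 0.879 ± 0.611 RPKM in mLN GF, 0.926 ± 0.353 in mLN SPF, 0.696 ± 0.251 in pLN GF and 0.797 ± 0.390 in pLN SPF (SD, n = 3 each). Ptprc, which encodes CD45, was not analysed here, nor were the listed markers of mesothelial, fat, Schwann and epithelial cells.

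Collagens were among the most abundant transcripts of these cells. Col3a1, the chain of type III collagen in reticular fibres, was the gene of rank 4 of all 10253 by mean RPKM. Col1a2 and Col1a1, the chains of type I collagen, had ranks 16 and 19, and Col6a1 and Col6a2 had ranks 39 and 78. The order Col3a1, Col1a2, Col1a1, Col6a1, Col6a2 held in all 12 libraries, but Col1a2 exceeded Col1a1 by as little as 1.01-fold. Below them, Col4a1 was under Col6a2 in 11 of 12 libraries, and Col14a1 and Col4a2 changed places, with Col14a1 the higher in 6 of 12. At the other end, Col27a1 and Col4a3 averaged 1.12 and 1.53 RPKM over the 12 libraries. Col3a1, Col1a2 and Col1a1 together made up 65.9% to 80.2% of all collagen RPKM in a library.

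**Figure D1:**
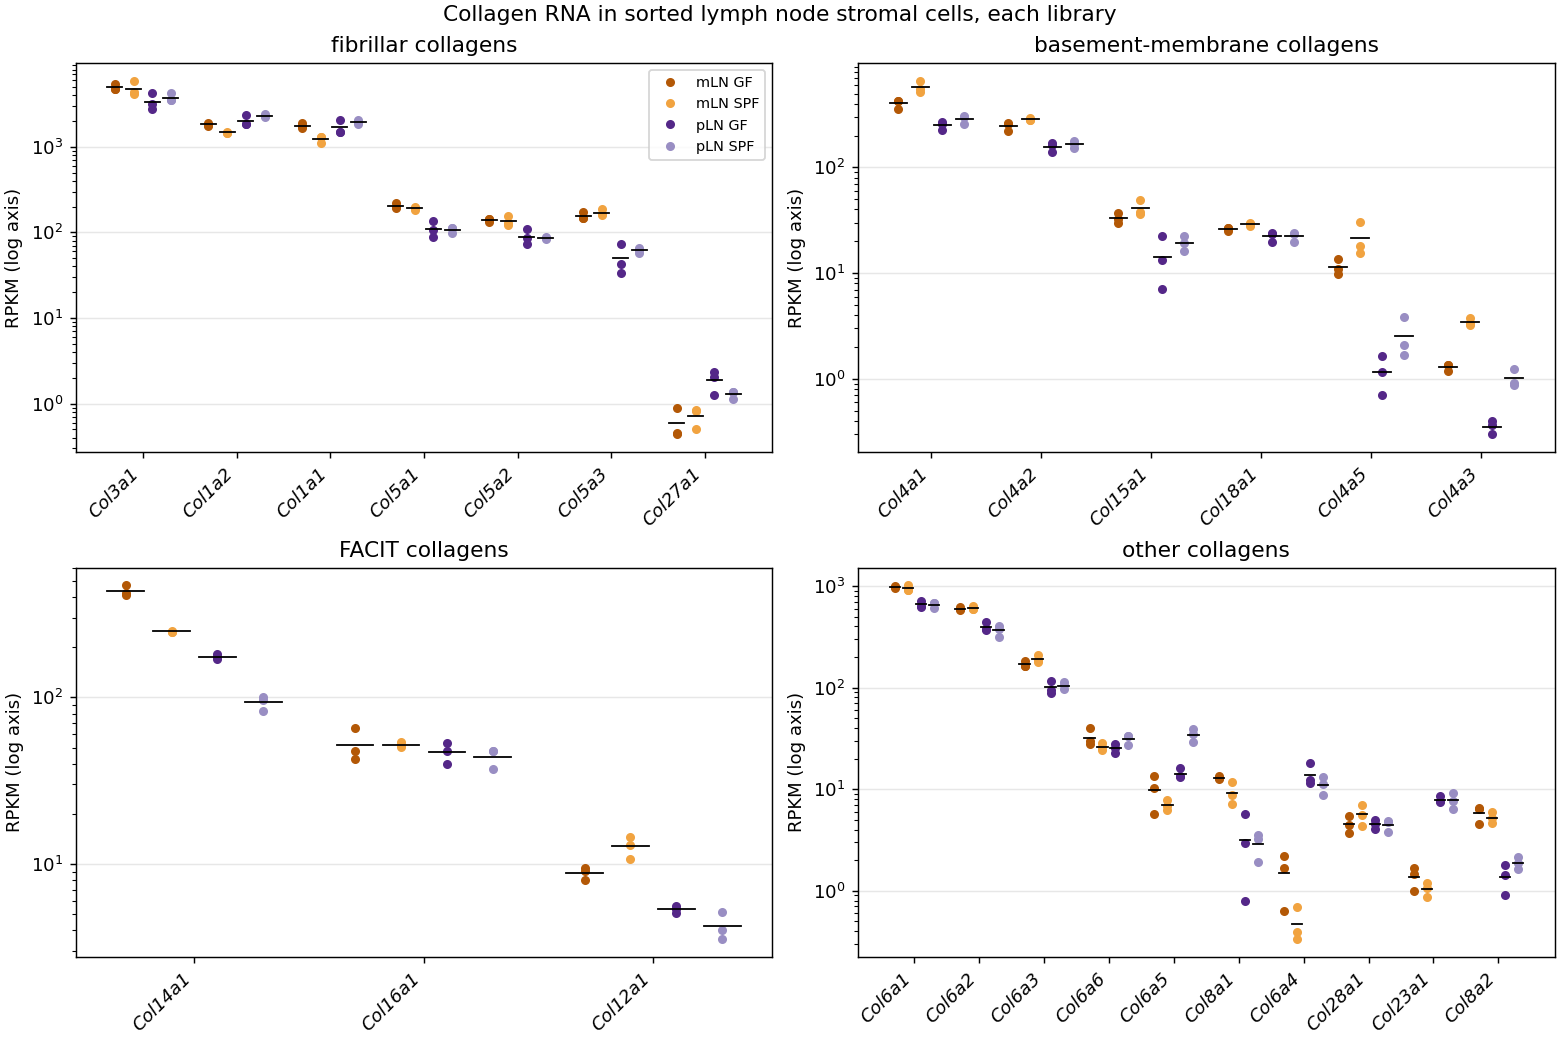
RPKM of the 26 tested collagen genes on log axes, 1 panel a class, with 1 point a library (3 a group) and a line at each group mean. The 12 libraries span 0.298 RPKM for Col4a3 to 5913 RPKM for Col3a1, and for Col6a4 and Col23a1 all mLN points lie below all pLN points.

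All collagens together took 3.92% ± 0.303 in mLN GF, 3.57% ± 0.347 in mLN SPF, 2.79% ± 0.506 in pLN GF and 3.15% ± 0.197 in pLN SPF of the summed RPKM (mean ± SD, n = 3 each). The fibrillar class accounted for most of this, with 2.94% ± 0.250 in mLN GF, 2.58% ± 0.314 in mLN SPF, 2.22% ± 0.463 in pLN GF and 2.57% ± 0.182 in pLN SPF. The pLN GF libraries varied most, since the collagen share was 3.38% in replicate 2 and 2.50% in both others. Basement-membrane collagens took 0.234% ± 0.023 in mLN GF, 0.309% ± 0.034 in mLN SPF, 0.135% ± 0.015 in pLN GF and 0.156% ± 0.017 in pLN SPF. For FACIT collagens the shares were 0.160% ± 0.018 in mLN GF, 0.101% ± 0.0014 in mLN SPF, 0.069% ± 0.0051 in pLN GF and 0.044% ± 0.0064 in pLN SPF. Shares of the remaining class were 0.589% ± 0.02 in mLN GF, 0.580% ± 0.024 in mLN SPF, 0.371% ± 0.038 in pLN GF and 0.380% ± 0.015 in pLN SPF. In these last 3 classes every mLN library had a larger share than every pLN library, whereas the fibrillar shares of the groups overlapped. The shares are given as a description without a test.

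The first question was whether collagen expression differed with lymph node location. Collagens were mostly higher in mLN than in pLN SCs. Most basement-membrane genes, Col14a1, the type V and type VIII chains and Col6a1 to Col6a3 lay above. Col6a4 and Col23a1 lay far below, and Col6a5 far below in SPF mice. The abundant Col1a1 and Col1a2 were lower in mLN of SPF mice (-0.64 each), and Col27a1 was lower in all mLN libraries. A gene was called where the difference in mean log2(RPKM + 1) had an adjusted p below 0.05 (limma, Benjamini-Hochberg over the 9764 genes) and a size of at least 1. In GF mice 6 collagens were called higher in mLN and 2 lower, beside a background of 4.57% and 6.87% of all tested genes. In SPF mice 8 were called higher and 3 lower, with a background of 3.99% and 6.41%. The median difference over the 26 collagens was 0.62 in GF and 0.69 in SPF mice, beside 0.00044 and 0.09 over all tested genes. All 8 collagens called in GF mice were also called in the same direction among the 11 (72.7%) of SPF mice, 6 higher and 2 lower. The 2 comparisons share no library, but both take their SE from 1 fit of all libraries, so these calls are not independent. Without the fold limit, 16 were higher and 4 lower in GF mice (background 17.1% and 18.4%), and 16 were higher and 5 lower in SPF mice (background 19.7% and 13.8%). Across housing, all 6 mLN libraries lay above all 6 pLN libraries for 15 collagens and below them for 3, against 13.7% and 11.7% of all tested genes.

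**Figure D2:**
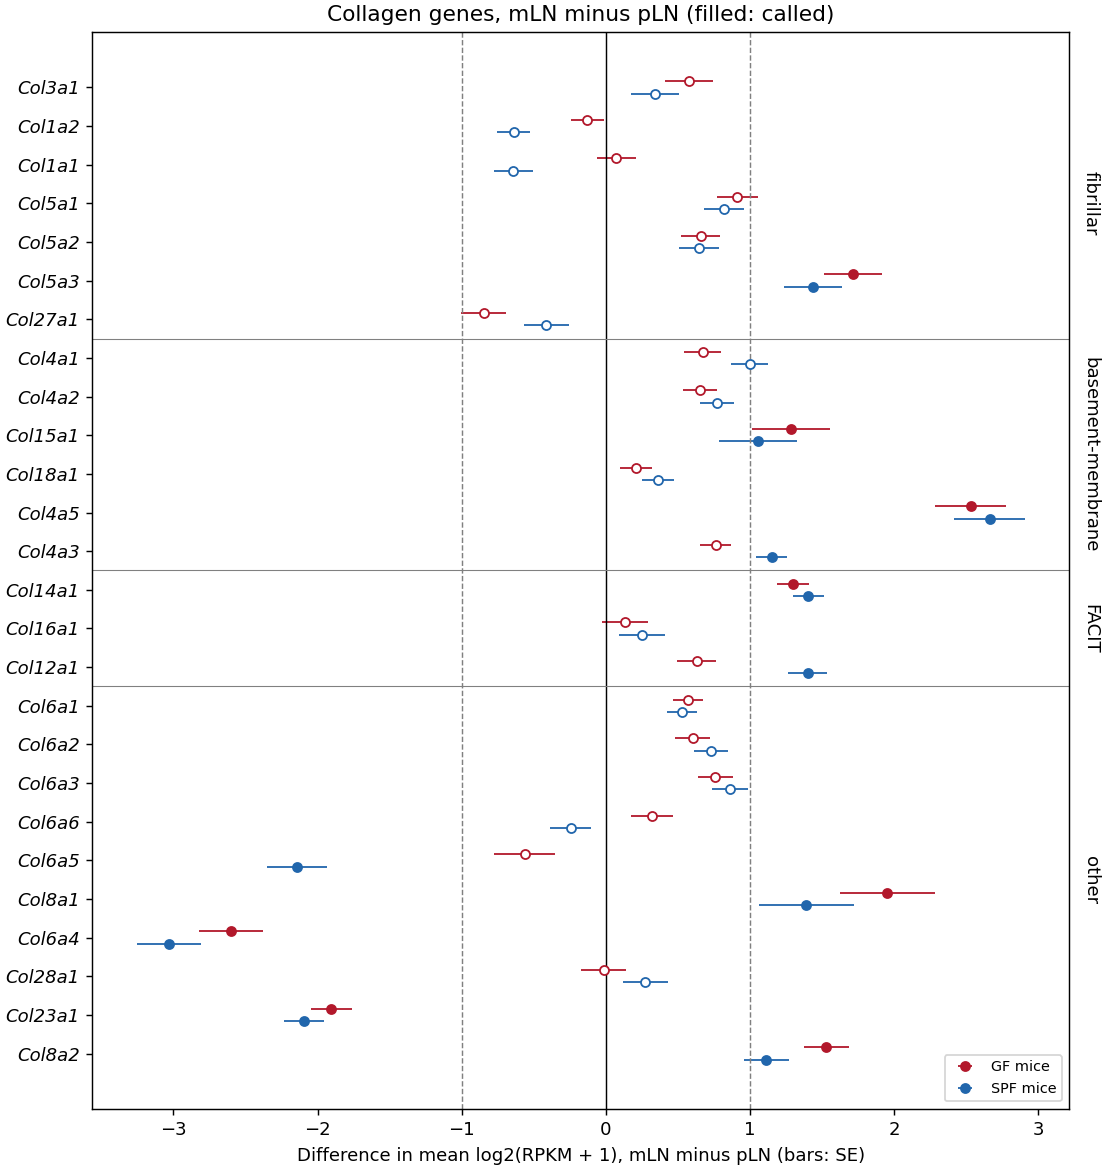
Difference in mean log2(RPKM + 1), mLN minus pLN, for each tested collagen in GF (red) and SPF (blue) mice, with bars of 1 SE from the limma fit, filled points for called genes and dashed lines at a size of 1. Col4a5 lies farthest to the right (2.53 and 2.66) and Col6a4 farthest to the left (-2.60 and -3.03).

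Among the fibrillar collagens, 1 of 7 was called in either housing. Col5a3, a chain of type V collagen, which takes part in starting fibrils, had 149, 174 and 148 RPKM in mLN GF, 159.8, 186 and 164 in mLN SPF, 33.3, 72.6 and 43.01 in pLN GF and 62.98, 57.4 and 65.8 in pLN SPF. Every mLN library was above every pLN library, and the difference was 1.71 ± 0.20 (adjusted p = 4.9e-06) in GF mice and 1.44 ± 0.20 (adjusted p = 3.3e-05) in SPF mice. Its partner chains Col5a1 and Col5a2 were higher by less, with 0.91 and 0.66 in GF mice and 0.82 and 0.65 in SPF mice, all with adjusted p of 0.0016 or less, and Col5a1 was called in GF mice without pLN GF replicate 2 (1.07). Thus all 3 type V chains lay above in all mLN libraries.

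Type I and type III collagen gave other values. Col3a1 had 5430.4, 4728 and 4747 RPKM in mLN GF, 4093, 5913 and 4391 in mLN SPF, 2749, 4256 and 3125 in pLN GF and 3496, 4209 and 3555 in pLN SPF. The mLN and pLN libraries overlapped in SPF mice but not in GF mice, and the difference was 0.58 ± 0.17 (adjusted p = 0.013) in GF mice and 0.34 ± 0.17 (adjusted p = 0.14) in SPF mice. Col1a2 had 1921, 1817 and 1763 RPKM in mLN GF, 1508, 1469 and 1461 in mLN SPF, 1828, 2365 and 1864 in pLN GF and 2249, 2269 and 2402 in pLN SPF. Its SPF libraries did not overlap and were lower in mLN, while those of GF mice overlapped, with a difference of -0.13 ± 0.11 (adjusted p = 0.42) in GF mice and -0.64 ± 0.11 (adjusted p = 3.7e-04) in SPF mice. Col1a1 behaved alike, with 0.07 in GF and -0.64 in SPF mice, of which only the SPF value passed the adjusted p (0.0015). The test of the difference between the housings did not pass for either, with 0.72 ± 0.19 (adjusted p = 0.17) for Col1a1 and 0.51 ± 0.16 (adjusted p = 0.29) for Col1a2. Without pLN GF replicate 2 the value for Col1a1 was 0.88 and passed (adjusted p = 0.029). Col27a1, a fibrillar collagen best known from cartilage, was near the filter with 0.436 to 2.34 RPKM and was lower in mLN, at -0.85 in GF mice (adjusted p = 4.2e-04) and -0.41 in SPF mice (adjusted p = 0.052). It was called in GF mice without pLN GF replicate 3 (-1.02), with a pseudocount of 0.1 (-1.53) and with limma voom on recovered reads (-1.88).

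In the basement-membrane class all 6 measured members lay above 0 in both housings, with a class median of 0.72 in GF and 1.03 in SPF mice. Col4a5, a type IV chain whose human counterpart is mutated in Alport syndrome, had 13.6, 9.84 and 10.9 RPKM in mLN GF, 15.6, 30.7 and 18.2 in mLN SPF, 0.703, 1.64 and 1.17 in pLN GF and 1.69, 3.81 and 2.08 in pLN SPF. No mLN library came near the pLN range, and the mean was 9.78-fold higher in GF and 8.51-fold higher in SPF mice, a difference of 2.53 ± 0.24 (adjusted p = 6.6e-07) in GF mice and 2.66 ± 0.24 (adjusted p = 3.9e-07) in SPF mice. Col4a3, which in mammals forms a network with the α4 and α5 chains in kidney, was low throughout, with 1.34, 1.19 and 1.34 RPKM in mLN GF, 3.25, 3.74 and 3.39 in mLN SPF, 0.363, 0.298 and 0.397 in pLN GF and 0.882, 1.24 and 0.917 in pLN SPF. Within each housing mLN lay above pLN, and the difference was 0.76 ± 0.11 (adjusted p = 3.4e-05) in GF mice and 1.15 ± 0.11 (adjusted p = 4.6e-07) in SPF mice. The GF value passed the fold limit with a pseudocount of 0.1 (1.63) and with voom (1.86), whereas adding 1 shrinks folds of values near 1 RPKM. Col4a3 shared 563 exonic bases with an antisense gene, and the libraries keep no strand, so reads there cannot be assigned. Col4a4 and Col4a6 were not analysed here.

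The common type IV chains had smaller differences. Col4a1 had 428, 421 and 359 RPKM in mLN GF, 522, 660.1 and 554 in mLN SPF, 272, 258 and 227 in pLN GF and 258, 309 and 299.7 in pLN SPF. All mLN libraries were higher, by 0.67 ± 0.13 (adjusted p = 5.9e-04) in GF mice and by 0.997 ± 0.13 in SPF mice, just under the limit of 1 (adjusted p = 1.4e-05). Leaving out mLN SPF replicate 1 or 3, or pLN SPF replicate 2 or 3, brought it to 1.02 to 1.07. Col4a2 had 264, 257 and 219 RPKM in mLN GF, 282, 293 and 279 in mLN SPF, 169, 161 and 139 in pLN GF and 154, 168 and 179 in pLN SPF, again with all mLN libraries above, and a difference of 0.65 ± 0.12 (adjusted p = 3.5e-04) in GF mice and 0.77 ± 0.12 (adjusted p = 7.9e-05) in SPF mice. Their first exons share 22 bases on opposite strands, within the shared promoter stretch printed above, and reads there cannot be told apart. Col15a1, a basement-membrane collagen that links to the fibrils beneath, had 29.7, 37.3 and 32.3 RPKM in mLN GF, 36.1, 49.5 and 38.1 in mLN SPF, 7.05, 22.3 and 13.4 in pLN GF and 22.6, 16.02 and 19.4 in pLN SPF. It was higher in all mLN libraries, by 1.29 ± 0.27 (adjusted p = 0.0014) in GF mice and 1.05 ± 0.27 (adjusted p = 0.0063) in SPF mice. Its call was lost in GF mice without pLN GF replicate 1 (0.89), the lowest library, and in SPF mice without mLN SPF replicate 2 (0.92) or pLN SPF replicate 2 (0.93) or after rescaling to median-of-ratios size factors (0.96). Col18a1, the source of endostatin, had the smallest differences of the class, with 19.9 to 29.98 RPKM and values of 0.21 in GF and 0.36 in SPF mice, of which the SPF value passed the adjusted p (0.021).

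Among FACIT collagens, Col14a1, which binds to the surface of fibrils, had 471, 410.3 and 421 RPKM in mLN GF, 248, 247 and 251 in mLN SPF, 182, 174 and 170.3 in pLN GF and 83.2, 101 and 96.2 in pLN SPF. The groups formed 4 separate levels, in the order mLN GF, mLN SPF, pLN GF and pLN SPF. The location difference was 1.30 ± 0.11 (adjusted p = 1.3e-07) in GF mice and 1.41 ± 0.11 (adjusted p = 5.3e-08) in SPF mice. Col12a1, a related FACIT collagen, had 9.45, 7.97 and 9.05 RPKM in mLN GF, 10.7, 14.6 and 13.1 in mLN SPF, 5.07, 5.61 and 5.33 in pLN GF and 3.54, 5.13 and 4.04 in pLN SPF. All mLN libraries were higher, and the difference was 0.63 ± 0.13 (adjusted p = 0.0016) in GF mice and 1.40 ± 0.13 (adjusted p = 6.7e-07) in SPF mice, so that only SPF mice passed the fold limit. Whether these values differ with housing was tested as -0.77 ± 0.19 (adjusted p = 0.13), which did not pass, although leaving out pLN SPF replicate 2 gave -0.89 with an adjusted p of 0.049. Col16a1 had 65.8, 42.7 and 47.4 RPKM in mLN GF, 54.02, 52.03 and 50.1 in mLN SPF, 53.1, 47.8 and 39.8 in pLN GF and 36.99, 47.3 and 47.5 in pLN SPF. The libraries overlapped in GF mice, and the difference was 0.13 ± 0.16 (adjusted p = 0.57) in GF mice and 0.25 ± 0.16 (adjusted p = 0.26) in SPF mice, which passed in neither.

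In the remaining class, type VI genes split into chains that were higher in mLN and chains that were lower. Col6a1 had 991, 958 and 989.8 RPKM in mLN GF, 1017, 917 and 908 in mLN SPF, 627, 718 and 637 in pLN GF and 679, 611 and 679 in pLN SPF, with all mLN libraries above and a difference of 0.57 ± 0.11 (adjusted p = 4.7e-04) in GF mice and 0.53 ± 0.11 (adjusted p = 9.6e-04) in SPF mice. Col6a2 had 597, 628 and 578 RPKM in mLN GF, 635, 594 and 594 in mLN SPF, 367, 448 and 376 in pLN GF and 405, 318 and 379.6 in pLN SPF, likewise with all mLN libraries above, and a difference of 0.60 ± 0.12 (adjusted p = 8.4e-04) in GF mice and 0.73 ± 0.12 (adjusted p = 1.6e-04) in SPF mice. Col6a3, the third chain of the common type VI molecule, had 88.7 to 208 RPKM and differences of 0.76 in GF and 0.86 in SPF mice. Thus the 3 chains of the common molecule were all higher in mLN, below the fold limit.

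Of the Col6a6, Col6a5 and Col6a4 neighbours, whose promoters are printed above and whose ends lie 27917 and 28810 bases apart, each gave another pattern. Col6a4, whose human counterpart is a broken gene, had 2.20, 0.626 and 1.69 RPKM in mLN GF, 0.685, 0.334 and 0.389 in mLN SPF, 17.97, 11.4 and 12.2 in pLN GF and 8.86, 13.3 and 11.1 in pLN SPF. All mLN libraries lay far below pLN, with a mean 0.108-fold that of pLN in GF and 0.0423-fold in SPF mice and a difference of -2.60 ± 0.22 (adjusted p = 1.9e-07) in GF mice and -3.03 ± 0.22 (adjusted p = 3.3e-08) in SPF mice. The mLN values rest on few reads, with 24 in the shallowest case. Col6a5 had 13.3, 5.71 and 10.2 RPKM in mLN GF, 7.76, 6.28 and 6.87 in mLN SPF, 13.1, 16.04 and 13.5 in pLN GF and 39.2, 28.97 and 34.8 in pLN SPF. In SPF mice it was lower in mLN, at -2.14 ± 0.21 (adjusted p = 7.9e-07), whereas in GF mice the libraries overlapped and the difference was -0.56 ± 0.21 (adjusted p = 0.048). Col6a6 had 39.6, 27.6 and 29.5 RPKM in mLN GF, 24.1, 28.6 and 26.3 in mLN SPF, 22.8, 27.95 and 25.5 in pLN GF and 33.7, 27.2 and 33.4 in pLN SPF, with overlap in both housings and differences of 0.32 and -0.24 in GF and SPF mice that did not pass. Col6a4 shares 127 and 162 exonic bases with 2 gene models on the opposite strand, and Col6a6 shares 63 with another, so reads there cannot be assigned.

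**Figure D3:**
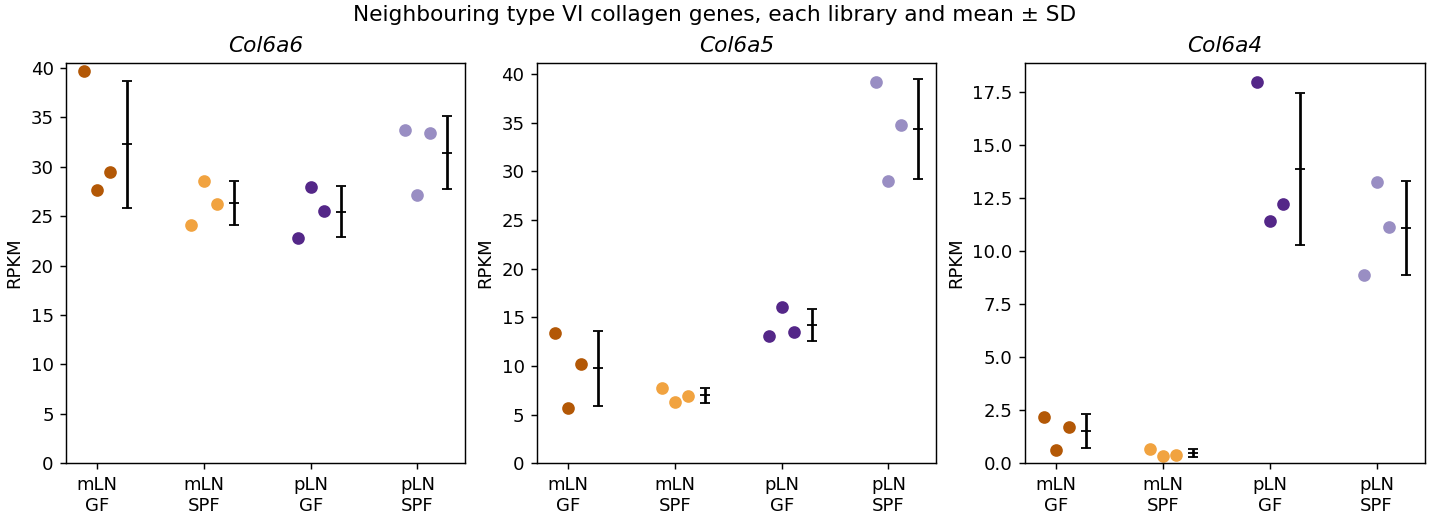
RPKM of Col6a6, Col6a5 and Col6a4 on linear axes from 0, with 3 coloured points a group for the libraries and black bars for mean ± SD. Col6a6 overlaps between locations, Col6a5 is highest in pLN SPF (28.97 to 39.2 RPKM) and Col6a4 is at most 2.20 RPKM in mLN and at least 8.86 RPKM in pLN.

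The last members were non-fibrillar collagens. Col8a1, a chain of the short network-forming type VIII collagen, had 12.9, 13.4 and 12.5 RPKM in mLN GF, 11.7, 7.13 and 8.86 in mLN SPF, 0.788, 5.68 and 2.93 in pLN GF and 1.94, 3.22 and 3.57 in pLN SPF. All mLN libraries were higher, and the difference was 1.95 ± 0.33 (adjusted p = 2.0e-04) in GF mice and 1.39 ± 0.33 (adjusted p = 0.0037) in SPF mice. Col8a2, its partner chain, had 6.49, 4.59 and 6.44 RPKM in mLN GF, 5.95, 4.61 and 5.19 in mLN SPF, 1.44, 1.79 and 0.903 in pLN GF and 1.89, 1.63 and 2.14 in pLN SPF, again higher in all mLN libraries, with a difference of 1.53 ± 0.16 (adjusted p = 1.2e-06) in GF mice and 1.11 ± 0.16 (adjusted p = 3.6e-05) in SPF mice. Col23a1, a transmembrane collagen, had 1.69, 0.989 and 1.46 RPKM in mLN GF, 1.18, 0.873 and 1.06 in mLN SPF, 8.54, 7.57 and 7.45 in pLN GF and 6.35, 9.22 and 7.72 in pLN SPF. All mLN libraries were lower, at -1.90 ± 0.14 (adjusted p = 3.9e-08) in GF mice and -2.09 ± 0.14 (adjusted p = 1.3e-08) in SPF mice. Col28a1, known from the nerve sheath in mouse, had 3.70 to 6.98 RPKM and overlapped, with -0.02 in GF and 0.27 in SPF mice.

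Markers of SC subsets moved with location too. Over all tested genes, 4.57% were called higher and 6.87% lower in mLN in GF mice. In SPF mice these shares were 3.99% and 6.41%. The 6 markers of CD34+ SCs (Cd34, Cd248, Ackr3, Ly6a, Pi16, Dpp4) summed to 3292 to 3999 RPKM in mLN GF, 3895 to 4470.5 in mLN SPF, 759.5 to 1649 in pLN GF and 1279 to 2070.0 in pLN SPF, and 6 of 6 were called higher in mLN in GF mice and 5 of 6 in SPF mice. Those of T zone reticular cells (Ccl19, Ccl21a, Il7, Fmod) summed to 389 to 669.8 RPKM in mLN GF, 106 to 291 in mLN SPF, 6840.1 to 8998 in pLN GF and 4366 to 5919 in pLN SPF, with 4 of 4 called lower in both. The 9 perivascular markers were Rgs5, Acta2, Notch3, Kcnj8, Abcc9, Mcam, Myh11, Des and Cspg4. They summed to 40.2 to 114 RPKM in mLN GF, 30.5 to 56.7 in mLN SPF, 456 to 616 in pLN GF and 461 to 491 in pLN SPF, with 7 of 9 lower in both. The largest in pLN were Des, averaging 205 RPKM in GF and 182 in SPF mice, and Acta2, averaging 131 and 100. Of 6 blood endothelial markers only Tek passed the filter and made up most of their sum, which was 58.3 to 65.4 RPKM in mLN GF, 71.5 to 85.8 in mLN SPF, 11.2 to 22.9 in pLN GF and 21.6 to 24.1 in pLN SPF. Tek was called higher in mLN (1.91 in GF and 1.75 in SPF mice), while the defining Cdh5 stayed at 0.306 RPKM or below in every library. Of the fibroblast genes, Thy1 (1.45) was called higher and Pdgfrb (-1.03) lower in mLN in GF mice, and Cd24a (-1.48), which encodes the excluded CD24, was also called lower. Lymphatic endothelial markers summed to at most 1.40 RPKM. In bulk samples fewer cells of a type and less RNA per cell cannot be told apart, and the part of these shifts in the collagen differences was not tested.

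Genes that act on collagens were examined from lists of enzymes and receptors. Their counts stand beside a background of 4.57% of all tested genes called higher and 6.87% lower in mLN in GF mice, and 3.99% and 6.41% in SPF mice. Of 21 genes of folding and modification, none was called higher in mLN, and 1 (GF mice) or 2 (SPF mice) were lower, with list medians of 0.21 and 0.07. P4ha3, a subunit of prolyl 4-hydroxylase, which stabilises the helix, averaged 1.72 ± 0.369 RPKM in mLN GF, 0.609 ± 0.101 in mLN SPF, 15 ± 1.90 in pLN GF and 6.94 ± 1.09 in pLN SPF (SD, n = 3 each). It was lower in mLN, at -2.56 ± 0.14 (adjusted p = 1.7e-09) in GF mice and -2.29 ± 0.14 (adjusted p = 3.8e-09) in SPF mice. P3h2, a prolyl 3-hydroxylase, was lower in SPF mice, at -1.33 ± 0.26 (adjusted p = 7.0e-04).

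Of 11 genes of processing and cross-linking, 4 were called higher in mLN in GF mice and 3 in SPF mice, none lower, beside the background of 4.57% higher in GF and 3.99% in SPF mice, and the list medians were 0.88 and 0.85. Loxl1, a lysyl oxidase-like enzyme that cross-links matrix, averaged 189 ± 9.58 RPKM in mLN GF, 206 ± 37.7 in mLN SPF, 55.9 ± 13.3 in pLN GF and 73.3 ± 16.4 in pLN SPF and differed by 1.76 ± 0.19 (adjusted p = 1.6e-06) in GF mice and 1.49 ± 0.19 (adjusted p = 1.0e-05) in SPF mice. Loxl2, another member of that family, averaged 10.9 ± 1.52 RPKM in mLN GF, 9.86 ± 1.60 in mLN SPF, 2.93 ± 0.846 in pLN GF and 2.27 ± 0.596 in pLN SPF and differed by 1.62 ± 0.18 (adjusted p = 2.7e-06) in GF mice and 1.74 ± 0.18 (adjusted p = 1.4e-06) in SPF mice. Adamts2, a procollagen N-proteinase, was called in GF mice (1.41) and had 0.996 in SPF mice, and Adamts14, a related proteinase, was called in SPF mice (1.26) and had 0.97 in GF mice. Pcolce2, an enhancer of procollagen C-proteinase, was called in GF mice (1.23). Of these 11 genes, Lox alone passed the test of the difference between the housings, and its values are given with the flagged results.

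Of 12 receptors and genes of uptake, 2 were called higher and 2 lower in GF mice, and 1 higher and 2 lower in SPF mice, beside the background of 4.57% higher and 6.87% lower in GF and 3.99% and 6.41% in SPF mice, with list medians near 0 (-0.0023 and 0.06). The collagen-binding integrin chains Itga11 and Itga1 were called in opposite directions in both housings. Itga11 averaged 70.8 ± 3.35 RPKM in mLN GF, 86.4 ± 3.95 in mLN SPF, 21.5 ± 5.67 in pLN GF and 32 ± 1.81 in pLN SPF and was higher in mLN by 1.70 ± 0.14 (adjusted p = 1.4e-07) in GF mice and 1.41 ± 0.14 (adjusted p = 1.3e-06) in SPF mice. Itga1 averaged 7.38 ± 2.87 RPKM in mLN GF, 3.72 ± 0.247 in mLN SPF, 49.9 ± 13.1 in pLN GF and 37.5 ± 6.64 in pLN SPF and was lower, at -2.63 ± 0.23 (adjusted p = 2.1e-07) in GF mice and -3.01 ± 0.23 (adjusted p = 4.7e-08) in SPF mice. Fap, a serine protease of fibroblasts that acts on denatured collagen, was lower, at -1.98 ± 0.13 (adjusted p = 1.1e-08) in GF mice and -1.52 ± 0.13 (adjusted p = 1.7e-07) in SPF mice. Ddr2, a receptor kinase for fibrillar collagen, was called higher in GF mice (1.03) and had 0.85 in SPF mice.

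The second question was whether housing changed collagen expression. It changed few collagens past the limits. In mLN none of 26 was called in either direction by limma, beside a background of 0.481% higher and 0.266% lower, and in pLN 1 was called lower and none higher, beside 0.635% and 0.42%. Without the fold limit, 2 were higher and 2 lower in mLN (background 2.08% and 2.53%), and 1 was higher and 2 lower in pLN (background 6.74% and 4.05%). The other tool run on recovered reads, limma voom, called 1 lower in mLN and 2 lower in pLN, and its share over all genes is not given here. By unadjusted p below 0.05, 8 of 26 collagens differed in mLN and 4 in pLN, beside 16.3% and 26.0% of all tested genes. The median over the collagens was 0.02 in mLN and -0.08 in pLN, beside -0.01 and 0.06 over all genes.

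Col6a5 was the collagen called for housing, lower in pLN of GF than of SPF mice. It was at 13.1, 16.04 and 13.5 RPKM in pLN GF and at 39.2, 28.97 and 34.8 RPKM in pLN SPF without overlap, a mean 0.414-fold that of SPF mice and a difference of -1.21 ± 0.21 (adjusted p = 0.0025). In mLN the groups overlapped, and the difference was 0.37 ± 0.21 (adjusted p = 0.42). The difference between these housing effects was 1.58 ± 0.30 (adjusted p = 0.031), the only such value among the 26 collagens to pass, beside a background of 0.154% higher and 0.143% lower. It lost its call without any 1 of 9 of the 12 libraries (adjusted p up to 0.115), and kept it only without replicate 2 of mLN GF, pLN GF or pLN SPF. The call was also lost with a pseudocount of 0.1 (adjusted p = 0.092) and with no filter (adjusted p = 0.059). The call in pLN itself was kept without each of the 12 libraries in turn.

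Col14a1 and Col4a3 moved the same way in both nodes, below the fold limit. Col14a1, with the values given above, was higher in GF mice in all libraries of either node, by 0.80 ± 0.11 (adjusted p = 5.4e-04) in mLN and 0.91 ± 0.11 (adjusted p = 1.4e-04) in pLN. Col4a3 was lower in GF mice in all libraries of either node, at -0.96 ± 0.11 (adjusted p = 1.0e-04) in mLN and -0.57 ± 0.11 (adjusted p = 0.0047) in pLN, with a mean 0.374-fold that of SPF mice in mLN and 0.348-fold in pLN. It passed the fold limit with a pseudocount of 0.1 (-1.35 in mLN and -1.29 in pLN) and with voom (-1.39 and -1.50). Its level rested on 20 to 343 reads a library. Col4a5, its partner chain, had -0.81 ± 0.24 (adjusted p = 0.078) in mLN and -0.68 ± 0.24 (adjusted p = 0.091) in pLN, lower in all GF libraries of either node but not past the test.

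The basement-membrane members lay below 0 in 6 of 6 cases in mLN and in 5 of 6 in pLN, with class medians of -0.41 and -0.36. Of them Col4a1 passed the adjusted p in mLN, at -0.52 ± 0.13 (adjusted p = 0.031), beside Col4a3, whose values in both nodes are given above. Col1a1 passed it in mLN at 0.50 ± 0.14 (adjusted p = 0.049), with all 3 mLN GF libraries above the mLN SPF libraries, and had -0.22 ± 0.14 (adjusted p = 0.34) in pLN. Col6a4 had 0.72 ± 0.22 (adjusted p = 0.089) in mLN and 0.29 ± 0.22 (adjusted p = 0.46) in pLN and was called in mLN with a pseudocount of 0.1 (1.39) and without mLN GF replicate 2 (1.004). Other collagens did not pass, with -0.48 for Col12a1 in mLN and -0.53 for Col15a1 in pLN at the lower end. Among the enzymes and receptors, P4ha3 alone was called, higher in GF mice in pLN, at 1.01 ± 0.14 (adjusted p = 3.8e-04). Of the SC markers, Ccl19 (1.32), Ccl21a (1.70), Acta2 (1.92) and Thy1 (1.56), which encodes CD90, were called higher in GF mice in mLN and none in pLN, and their part in these values was not tested.

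**Figure D4:**
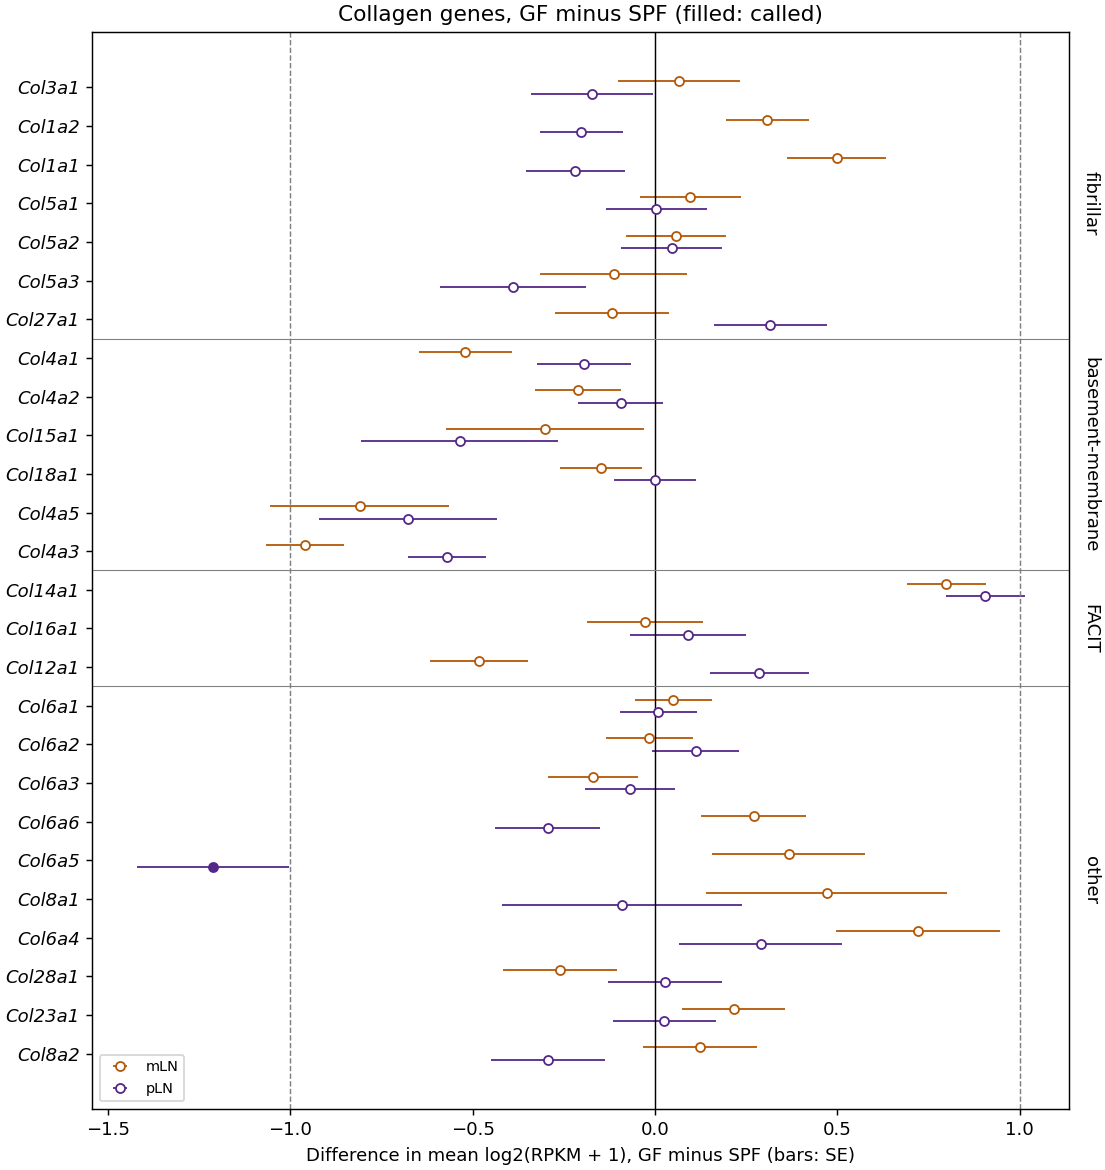
Difference in mean log2(RPKM + 1), GF minus SPF, for each tested collagen in mLN (orange) and pLN (purple), with bars of 1 SE from the limma fit and a filled point for the called gene. Col6a5 in pLN (-1.21) is past the dashed line at -1, and Col14a1 lies at 0.80 and 0.91.

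Whether partner chains kept a constant proportion was asked with 5 ratios of RPKM. Each ratio was compared between locations within housing and between housings within location by a two-sided exact permutation test of its mean log2 difference, 10 tests in all. With 400 arrangements the smallest p is 0.005, which adjusts to 0.05 when it stands alone among 10, and no adjusted p fell below 0.05. Col4a2/Col4a1 was 0.617, 0.610 and 0.609 in mLN GF, 0.540, 0.443 and 0.503 in mLN SPF, 0.623, 0.625 and 0.611 in pLN GF and 0.596, 0.543 and 0.597 in pLN SPF. All GF libraries were above all SPF libraries, and the difference was 0.20 (p = 0.005, adjusted p = 0.05) for housing and -0.12 (p = 0.015, adjusted p = 0.05) for location in exact permutation tests. The location value averages -0.018 in GF mice and -0.23 in SPF mice, and the housing value 0.31 in mLN and 0.10 in pLN. Col6a3/Col6a1 was 0.183, 0.172 and 0.166 in mLN GF, 0.177, 0.227 and 0.205 in mLN SPF, 0.153, 0.163 and 0.139 in pLN GF and 0.142, 0.184 and 0.156 in pLN SPF, with 0.27 (p = 0.015, adjusted p = 0.05) for location by the same exact test. When same-numbered SPF libraries were exchanged only as pairs, an alternative chosen after seeing the data, there were 160 arrangements. In this exact test the location p was 0.0125, the smallest possible, for Col6a3/Col6a1 and 0.025 for Col4a2/Col4a1, with an adjusted p of 0.0625 for each.

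For the other 3 ratios no adjusted p was below 0.075. Col1a2/Col1a1 was 1.02, 1.10 and 1.01 in mLN GF, 1.15, 1.31 and 1.12 in mLN SPF, 1.22, 1.14 and 1.25 in pLN GF and 1.15, 1.24 and 1.17 in pLN SPF, lowest in mLN GF, with -0.10 (p = 0.135, adjusted p = 0.19) for location and -0.09 (p = 0.15, adjusted p = 0.19) for housing by exact permutation. Its location value was -0.20 in GF and 0.004 in SPF mice, and its housing value -0.19 in mLN and 0.02 in pLN. For Col5a2/Col5a1 the group means lay between 0.688 in mLN GF and 0.82 in pLN GF, and the location difference was -0.21 (p = 0.03, adjusted p = 0.075) by exact permutation. For Col6a2/Col6a1 they lay between 0.642 in mLN SPF and 0.559 in pLN SPF, and the location difference was 0.12 (p = 0.04, adjusted p = 0.08) by exact permutation. This location value averages 0.03 in GF mice and 0.20 in SPF mice. Thus Col1a2 lay between 1.01 and 1.31 times Col1a1 over the 12 libraries.

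**Figure D5:**
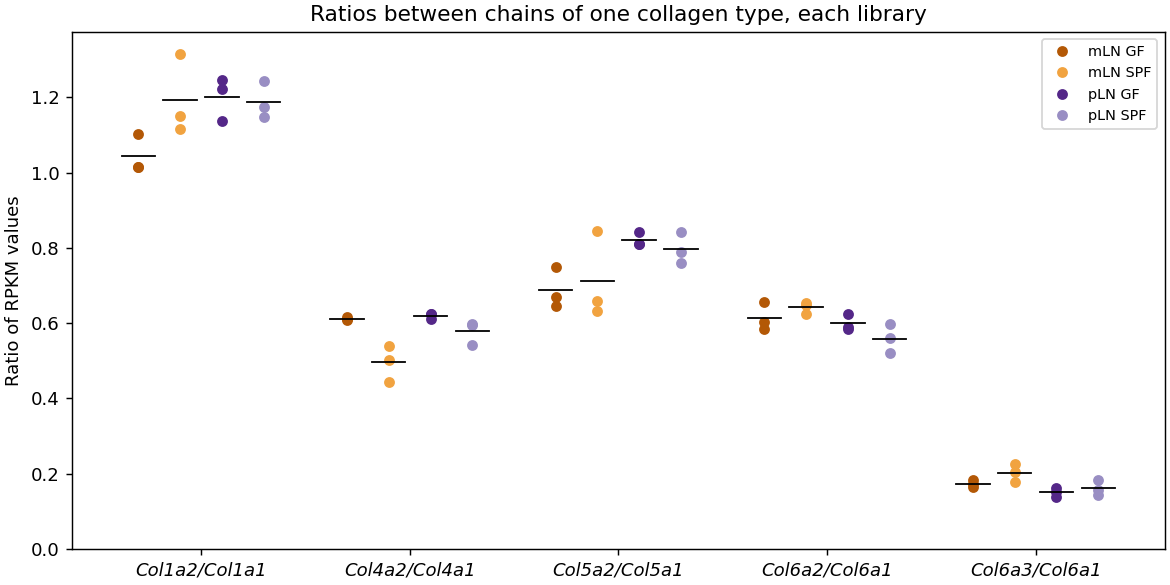
Ratio of RPKM between chains of 1 collagen type on a linear axis from 0, with 3 points a group for the libraries and a line at the mean. The Col4a2/Col4a1 points of both GF groups lie between 0.609 and 0.625 and those of both SPF groups between 0.443 and 0.597.

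In both GF groups and in pLN SPF many collagens were highest or lowest in the same library. In pLN GF, replicate 2 was highest for 17 of 26 collagens and replicate 1 lowest for 14, whereas 23.0% of all tested genes were highest in replicate 2 and 23.5% lowest in replicate 1. The summed CD34+ SC markers had the same order, with 760 RPKM in replicate 1, 1649 in replicate 2 and 1275 in replicate 3. In mLN GF, replicate 1 was highest for 21 of 26 collagens, against 39.1% of all tested genes, while the CD34+ SC sum was lowest there, with 3292 RPKM against 3999 in replicate 2 and 3745 in replicate 3. In mLN SPF, replicate 1 was highest for 11 collagens and lowest for 11, against 31.2% and 38.5% of all tested genes. Replicate 2 was highest for 12 and lowest for 10, against 43.2% and 38.2%. The CD34+ SC sum of mLN SPF was 4470.5 RPKM in replicate 1, 3895 in replicate 2 and 4253 in replicate 3. In pLN SPF, replicates 2 and 3 were highest for 11 and 10 collagens, against 41.8% and 18.2% of all tested genes. Replicate 1 was lowest for 16, against 34.6%, and replicate 3 for 0, against 24.9%. Yet the CD34+ SC sum of pLN SPF was highest in replicate 1, with 2070.0 RPKM against 1279 in replicate 2 and 1653 in replicate 3. The genes of 1 library share its cells and depth, so these counts are a description.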

How the data were processed

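RNA-seq of FACS-sorted SCs was analysed in 12 libraries (4 groups of 3, from the sample titles). Per the labels, cDNA was made with a template-switching kit, which keeps no strand, and sequenced as single reads of 50 bp. The submitters' notes name TopHat2 1.2.0 for the alignment to GRCm38 (mm10) and HTSeq 0.12.4 for counting, and from these counts the authors computed the deposited RPKM values. The choice of genes for the table is not stated. The table also holds log2 fold changes and p-values of the authors' own DESeq2 comparisons, which were not used. Reads behind RPKM values were recovered as whole numbers for 10247 of 10253 genes (tolerance 1e-06), 4623295 to 14090731 a library.

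Log2(RPKM + 1) was fitted for 9764 genes (at least 1 RPKM in at least 3 libraries) as 4 group means in 1 model (limma 3.58.1, R 4.3.3), with Benjamini-Hochberg adjustment over all of them. On simulated data for the SPF location comparison (9758 genes), 79% of genes changed by 1.5 log2 and 99% of those changed by 3 were called. In SPF mice the same-numbered mLN and pLN libraries deviated together over all tested genes (correlations 0.26, 0.46 and 0.18). Yet mLN replicate 1 correlated more with pLN replicate 3 (0.30), and mLN replicate 3 with pLN replicate 1 (0.21). In GF mice the same-numbered values were 0.23, 0.22 and 0.08, and the others lay between -0.24 and 0.03. Between housings same-numbered values were -0.33 to 0.02. Whether equal numbers mean paired libraries is therefore not known. The main fit was unpaired, and numbers entered only the replicate blocks and, for SPF libraries, the chain ratio alternative. Positions are from GENCODE M21. Genes named in full were the 2 of highest mean RPKM in each class and every called collagen. From the other lists every called gene was named, up to 10 a list and comparison. The collagens, classes and lists were chosen with earlier results of these data known. Alternatives were a pseudocount of 0.1, no filter, rescaling, only the libraries of the groups compared, trend and robust options, adjusted p alone, replicate blocks, limma voom on recovered reads, leaving out each library and, added after seeing the data, pairing the SPF libraries in the chain ratios. The data were further handled in Python 3.11.15 with pandas 2.3.3 and NumPy 2.4.6, and drawn with matplotlib 3.10.9.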

Additional observations from a re-analysis of the deposited data

Results flagged for a closer look

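Among the collagens and the listed enzymes and receptors, the location effect of 2 genes differed between housings by the test of the difference itself (limma, Benjamini-Hochberg over 9764 genes, of which 0.154% passed higher and 0.143% lower). For Col6a5 the mLN minus pLN difference was -0.56 in GF and -2.14 in SPF mice, and their difference was 1.58 ± 0.30 (adjusted p = 0.031). Both mLN groups were low, with 5.71 to 13.3 RPKM in GF and 6.28 to 7.76 RPKM in SPF libraries, and pLN SPF stood above pLN GF. For Lox, the lysyl oxidase that cross-links collagen, the mLN minus pLN difference was 0.71 ± 0.14 (adjusted p = 5.9e-04) in GF and -0.27 ± 0.14 (adjusted p = 0.15) in SPF mice, and their difference was 0.98 ± 0.19 (adjusted p = 0.045). Lox averaged 36.5 ± 1.23 RPKM in mLN GF, 32.4 ± 3.14 in mLN SPF, 22.1 ± 3.81 in pLN GF and 39.2 ± 5.06 in pLN SPF (SD, n = 3 each), so that pLN GF was the low group. The Lox call was lost without any 1 of 9 of the 12 libraries (adjusted p up to 0.15) and kept without mLN SPF replicate 2, pLN GF replicate 2 or pLN SPF replicate 3 (adjusted p from 0.017). It was also lost with a pseudocount of 0.1 (adjusted p = 0.092) and with no filter (adjusted p = 0.057). Colony, age range and any difference in site of the mice cannot be told apart from housing in either gene.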

How the results depend on the processing

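Of 15 collagen calls lost and 46 gained over all alternatives and comparisons of single genes, 28 of the gains came from dropping the fold limit, and no called value changed sign. Of 130 single-gene results 23, none called and none above 0.39 in size, changed sign under at least 1 alternative, as did 2 uncalled chain ratios by housing. By adjusted p alone, collagens called higher and lower were 16 and 4 for location in GF mice, 16 and 5 in SPF mice, 2 and 2 for housing in mLN and 1 and 2 in pLN. With a pseudocount of 0.1, housing called 1 higher and 1 lower in mLN and 2 lower in pLN, and the difference of the housing effects called 0, as it did with no filter. Voom on recovered reads called 1 lower in mLN and 2 lower in pLN for housing. Shares of all genes called by voom or with a pseudocount of 0.1 are not given here. Leaving out 1 library gave 5 to 7 higher and 2 to 3 lower for location in GF mice, 7 to 9 higher and 3 lower in SPF mice, 0 to 1 higher in mLN and 1 lower in pLN for housing, and 0 to 2 higher and 0 to 1 lower for the difference of the housing effects. For the chain ratios it gave 0.17 to 0.24 for Col4a2/Col4a1 by housing (called without mLN SPF replicate 2) and -0.28 to -0.17 for Col5a2/Col5a1 by location (called without the same library). Leave-one-out shares of collagen RPKM lay between 4.01% in mLN GF and 2.50% in pLN GF. The replicate block, additive or nested in housing, changed no call: 6 higher and 2 lower in GF mice and 8 higher and 3 lower in SPF mice for location. Nor did pairing the SPF libraries in the chain ratios, which was added after seeing the data. Genes near 1 RPKM (Col4a3, Col27a1, Col6a4 in mLN) are limited by depth and by the pseudocount. Groups of 3 libraries were too small for a check for outlying libraries.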
